A study of Mus musculus with 3 samples.

Results

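The purinergic set examined here comprised 10 genes, chosen by name, out of 32285 genes counted in each library. P2ry12, P2ry13, P2ry6 and P2ry1 encode P2Y receptors, P2rx4 and P2rx7 encode P2X channels, Entpd1 (CD39) and Nt5e (CD73) encode ectonucleotidases, and Adora1 and Adora3 encode adenosine receptors. Their unique molecular identifiers (UMIs) were summed per cell class and library over cells with at least 500 detected genes and at most 7% mitochondrial UMIs, and scaled to a total of 1000000 (CPM).

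ATP and ADP released from cells act on P2X channels, which pass cations when ATP binds, and on P2Y receptors, which signal through G proteins. CD39 strips ATP and ADP down to AMP, and CD73 turns AMP into adenosine, the ligand of the adenosine receptors. In the brain, P2RY12 is the best known of these proteins, as the receptor through which resting microglia extend their processes toward ADP at sites of damage.

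The study asked how brain cells respond to an experimental transient ischemic attack (TIA), a 5 min filament occlusion of the middle cerebral artery. All mice were WT on the C57BL6J strain, adults, and males as far as the study's text says, with neither sex nor age read from the labels. One group was labelled naive, though the study's text also calls its control sham, and the others were taken 24 h and 3 d after TIA, arms whose treatment label reads as time after stroke. Each group was a single library from 3 pooled mice, so that no difference between libraries carries a replicate check and no p-value is given. The effect of the occlusion cannot be told apart from that of anaesthesia and surgery where naive mice had none, nor from chance differences between libraries, and the naive library served as the reference for both times after TIA. Living, propidium iodide negative cells were sorted after papain digestion of hemispheres (the ipsilateral side after TIA) freed of white matter and meninges.

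After filtering, the naive, 24 h and 3 d libraries kept 4018, 1225 and 4781 cells, with a median of 7750, 8123 and 7868 UMIs per cell. Of these, 8588 cells fell into 6 classes that each library filled with 50 or more cells, named from marker genes outside the purinergic set. They were microglia-like (981 naive cells, 270 at 24 h and 1208 at 3 d), astrocyte-like (894, 239 and 1427), oligodendrocyte-like (232, 72 and 250), endothelial-like (288, 229 and 591), pericyte-like (160, 182 and 327) and immature neuron-like cells (766, 109 and 363), and are called by these names without the suffix below. All 12 microglial markers were found in the microglia, while the pericyte cluster also held some fibroblast and smooth muscle markers and the immature neuron cluster some mature neuron markers. Of all barcodes, 15 occurred in a pair of libraries. The 24 h library was the smallest, which widens each interval drawn from it, and all intervals below are 95% intervals that cover counting error only. A member counted as different at least 2-fold only with 30 or more UMIs over both libraries.

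In the mouse genome (GRCm38, the mm10 build of the files; gene models of GENCODE vM21) P2ry12 lies at chr3:59216272-59262871 and P2ry13 beside it at chr3:59207892-59210882, both on the minus strand and inside the oppositely oriented Med12l gene. P2rx7 (chr5:122643911-122691432) and P2rx4 (chr5:122707544-122729738) are also neighbours, on the plus strand. Entpd1 is at chr19:40612366-40741602 (plus), Nt5e at chr9:88327197-88372092 (plus), P2ry6 at chr7:100937630-100974649 (minus), P2ry1 at chr3:61002795-61008982 (plus) and Adora1 at chr1:134199223-134235431 (minus). Adora3 (chr3:105870858-105908926) overlaps Tmigd3 on the same strand, so that reads from the shared part cannot be assigned with certainty. Entpd1 overlaps predicted gene models and P2rx7 overlaps Mir8115, each on its own strand. How far these overlaps affect the counts was not compared.

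P2ry12 and P2ry13 were the neighbouring genes that were lower together in microglia after TIA (below), and for this reason their promoters are shown, with those of Entpd1 and Adora3, the other members whose promoter held a match to the searched motif. RefSeq promoter entries on GRCm38.p6 were found for 9 of the 10 members, all but P2ry6. Each sequence is the 250 bases before a start site, 5′ to 3′ on the gene's strand, and capitals mark GAGGAA on either strand, a longer form of the GGAA core of ETS factors that PU.1 favours. The shorter core was not searched for. The windows are chr3:59262986-59263235 for P2ry12, chr3:59210883-59211132 for P2ry13, chr19:40659520-40659769 for the downstream Entpd1 start and chr3:105904171-105904420 for Adora3.
P2ry12: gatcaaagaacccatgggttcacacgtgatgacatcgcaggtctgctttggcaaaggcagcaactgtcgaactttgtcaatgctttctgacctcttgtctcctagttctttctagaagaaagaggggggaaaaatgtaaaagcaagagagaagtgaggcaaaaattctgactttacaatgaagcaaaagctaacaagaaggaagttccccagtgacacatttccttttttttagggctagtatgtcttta
P2ry13: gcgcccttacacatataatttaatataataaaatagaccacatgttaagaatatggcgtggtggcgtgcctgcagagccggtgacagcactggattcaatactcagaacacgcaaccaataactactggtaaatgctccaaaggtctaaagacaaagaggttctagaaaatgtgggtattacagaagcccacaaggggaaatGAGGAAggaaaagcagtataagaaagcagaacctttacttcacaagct
Entpd1: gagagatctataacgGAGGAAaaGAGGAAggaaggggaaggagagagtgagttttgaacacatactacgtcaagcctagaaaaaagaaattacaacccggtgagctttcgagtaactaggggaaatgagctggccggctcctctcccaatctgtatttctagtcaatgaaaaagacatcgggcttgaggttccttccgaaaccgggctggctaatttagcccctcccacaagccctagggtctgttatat
Adora3: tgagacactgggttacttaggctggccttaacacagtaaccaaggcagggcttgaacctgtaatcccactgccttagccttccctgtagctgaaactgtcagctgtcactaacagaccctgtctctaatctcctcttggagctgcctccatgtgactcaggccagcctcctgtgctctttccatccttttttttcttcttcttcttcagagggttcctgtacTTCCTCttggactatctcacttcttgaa
The P2ry13 window held 1 match, whose first base lay at position -48 from the start site, and the Entpd1 window held 2 at -235 and -227. Adora3 held 1, at -28 on the other strand, and the P2ry12 window held no GAGGAA, which says nothing of the shorter core or of any factor. The P2ry12 start used, at position 59262985, lies outside its gene model given above, which ends at 59262871. The 50 bases after that start were not found in the annotated P2ry12 transcripts, unlike those of P2ry13. No window at the start of the gene model was searched. Over all 32851 promoter windows of that length, 23.3% held the motif, so that a match is only a description.

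Across the 6 compared cell classes, 7 of the 10 members had their highest level in microglia in the naive library, and those 7 kept microglia as their highest class in both TIA libraries. A mixed immune cluster outside these classes, of only 39, 15 and 45 cells, had higher CPM of P2rx7 and P2rx4 than microglia in every library (see Other observations). Its intervals were not compared with those of microglia. P2ry12 reached 2772 CPM in naive microglia (21641 UMIs), 1667 CPM at 24 h (4525 UMIs) and 2226 CPM at 3 d (22105 UMIs), and the naive level was 27.5-fold that of astrocytes, the next class. P2ry13, an ADP receptor related to P2RY12, stood at 511, 381 and 367 CPM in microglia of the naive, 24 h and 3 d libraries. P2ry6, the receptor for UDP, stood at 227, 238 and 252 CPM. For each of these P2Y receptors the interval in microglia lay far above that of every other class, and most neighbours in the order of the other 5 classes had overlapping intervals.

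**Figure D1:**
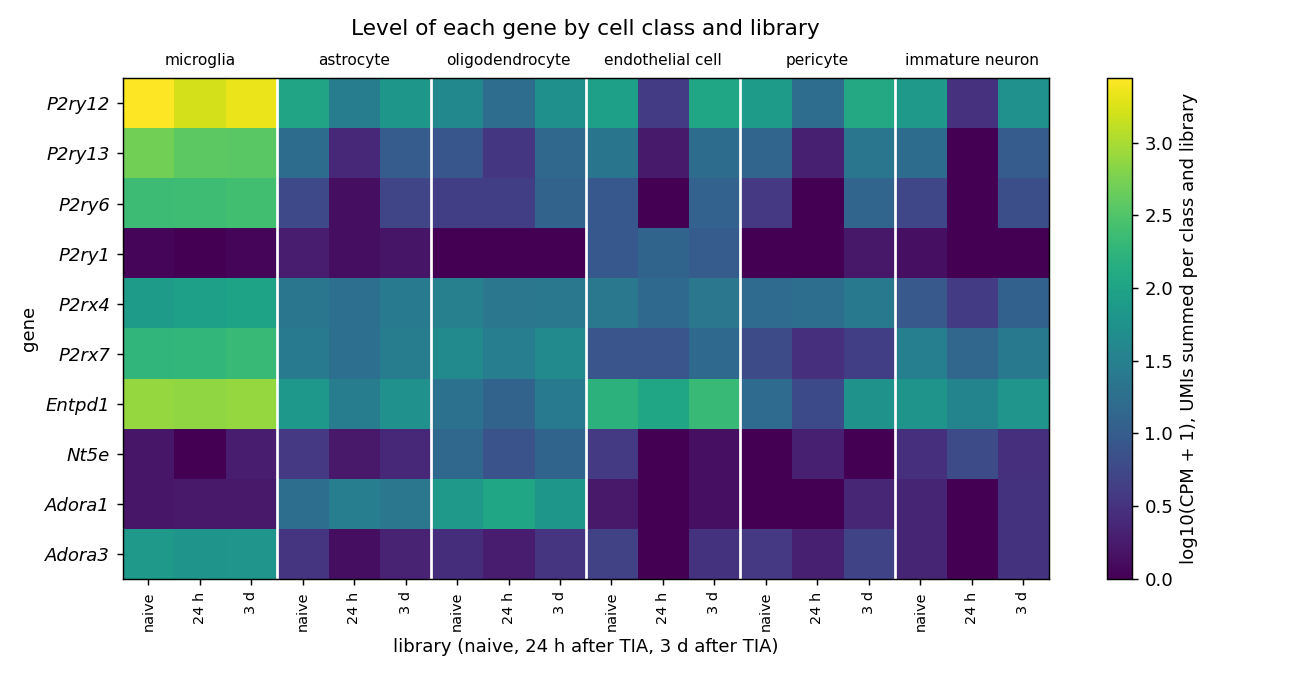
Each row is a gene and each column a cell class in 1 library (naive, 24 h or 3 d after TIA), and colour gives log10(CPM + 1) of the summed UMIs. P2ry12, with 2772 CPM in naive microglia, is brightest in microglia, while Adora1 and Nt5e are brightest in oligodendrocytes and P2ry1 in endothelial cells.

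The P2X channels had a wider distribution. P2rx7, the channel that opens at high ATP and feeds the inflammasome, measured 182, 187 and 206 CPM in microglia, and 41.6, 29.1 and 41.9 CPM in oligodendrocytes of the naive, 24 h and 3 d libraries. Immature neurons (29.2 CPM) and astrocytes (24.4 CPM) followed in the naive library with overlapping intervals, and endothelial cells (7.13 CPM) and pericytes (5.38 CPM) were lowest. P2rx4, a channel with a large endolysosomal pool, measured 78.6, 87.7 and 96.9 CPM in microglia. In naive cells it came next in oligodendrocytes (30.99 CPM, interval 25.3 to 37.6), endothelial cells (22.8 CPM, 15.6 to 32.2), astrocytes (21.4 CPM, 18.4 to 24.6) and pericytes (14.8 CPM, 7.38 to 26.5), neighbours in this order whose intervals overlapped.

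The ectonucleotidases differed in where they were found. Entpd1 measured 799.6 CPM in naive microglia (6243 UMIs), 751 CPM at 24 h and 788 CPM at 3 d. Endothelial cells were its second class in all 3 libraries, with 160.5 CPM (225 UMIs), 107 CPM (137 UMIs) and 207 CPM (567 UMIs), and astrocytes (68.3 CPM) and immature neurons (60.4 CPM) came next in the naive library with overlapping intervals. Nt5e was sparse everywhere. Its highest compared class was oligodendrocytes, with 13.7 CPM (45 UMIs) in the naive library, 6.66 CPM (8 UMIs) at 24 h and 11.8 CPM (41 UMIs) at 3 d. At 24 h immature neurons (5.21 CPM, 5 UMIs) had an overlapping interval, so that no class stood highest beyond counting error, and naive astrocytes held 2.70 CPM (24 UMIs). Microglia, the class richest in Entpd1, held only 5, 0 and 8 Nt5e UMIs among 7808031, 2714753 and 9931676, where the 0 at 24 h sets the floor of 3 UMIs at 1.105 CPM and the upper end of the interval at 1.36 CPM.

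The adenosine receptors were split between classes. Adora1, the inhibitory A1 receptor, was highest in oligodendrocytes, with 69.9 CPM (230 UMIs) in the naive library, 105 CPM (126 UMIs) at 24 h and 65.8 CPM (229 UMIs) at 3 d. Astrocytes were the next class with 16.4, 28.5 and 22.1 CPM, and their intervals overlapped neither those of oligodendrocytes nor those of the class after them in any library. Microglia held 5, 2 and 7 Adora1 UMIs (0.640, 0.737 and 0.705 CPM). Adora3 showed the reverse, with 72.6, 60.4 and 61.5 CPM in microglia and at most 4.03 CPM in any other compared class.

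P2ry1, another ADP receptor, was found in few UMIs. Endothelial cells were its highest compared class, with 11, 15 and 25 UMIs (7.85, 11.7 and 9.13 CPM), and microglia held 1, 0 and 1. A cluster with fibroblast markers, too small to be compared (9, 2 and 11 cells), held 7, 2 and 5 P2ry1 UMIs, or 100, 140 and 67.2 CPM.

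Because droplets also capture RNA from other cells, each level outside a gene's highest class was set beside 12 microglial marker genes in the same class and library (or the 9 oligodendrocyte or 10 endothelial markers for genes of those classes). In the naive library the microglial markers had a median of 2.73% of their microglial CPM in astrocytes, 1.48% in oligodendrocytes, 2.64% in endothelial cells, 1.59% in pericytes and 2.59% in immature neurons. P2ry12 lay at 3.63%, 1.45%, 3.11%, 2.77% and 2.60% of its microglial level in the same classes, and P2ry13 at 3.035%, 1.43%, 4.05%, 2.37% and 3.07%. No expression outside microglia is read from levels this near those of the markers. In astrocytes only 2 of the 12 markers were as high as either gene, and P2ry12 lay above the median marker share in all 3 libraries, with 896 UMIs against 675, 80 against 40.45 and 928 against 656. The same held in pericytes, with 57 against 32.8 UMIs, 16 against 5.94 and 179 against 166, and the part of RNA from other cells in these levels was not tested. P2ry6 (1.18% to 3.45%) and Adora3 (1.76% to 4.91%) lay in the same range.

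The other 3 microglial members stood apart from the markers in particular classes. P2rx7 in naive oligodendrocytes was at 22.9% of its microglial level (interval 19.1% to 27.3%), above all 12 markers, which reached 7.98% at most, and it was above all 12 markers in naive astrocytes (13.4%) and immature neurons (16.0%) too. In pericytes P2rx7 was at 2.96%, within the range of the markers. P2rx4 was above all 12 markers in oligodendrocytes (39.4%), endothelial cells (29.0%), astrocytes (27.15%) and pericytes (18.8%) of the naive library. Entpd1 was above all 12 in endothelial cells in every library, at 20.1%, 14.2% and 26.3%, and above 11 of 12 in naive astrocytes (8.54%) and immature neurons (7.55%). In naive oligodendrocytes (2.28%) and pericytes (1.85%), 2 and 4 markers were as high. Against the 9 oligodendrocyte markers, whose highest value in astrocytes was 0.26% in the naive library, Adora1 in astrocytes lay at 23.5%, 27.1% and 33.55% of its oligodendrocyte level.

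**Figure D2:**
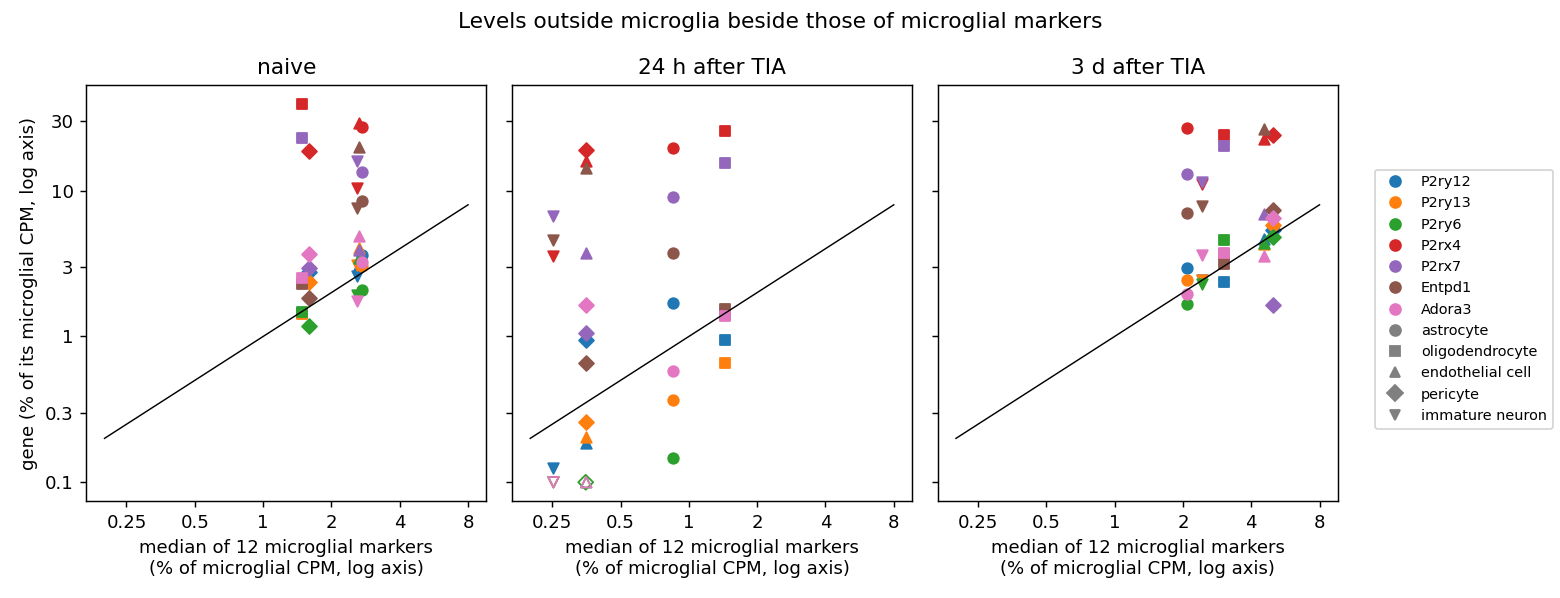
For 7 microglial members, the level in each of the 5 other classes, as a percentage of the level in microglia of the same library, is plotted against the median of 12 microglial markers on log axes. Symbols give the class, colours the gene, open symbols at the lower edge are genes with 0 UMIs, and the line marks equality. P2ry12, P2ry13, P2ry6 and Adora3 scatter about the line in the naive and 3 d libraries, while most P2rx4 and P2rx7 values and endothelial Entpd1 (20.1% in the naive library) lie above it.

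In microglia, P2ry12, P2ry13 and Adora3 were lower by their intervals in both TIA libraries than in the naive library, and P2rx4, P2rx7 and P2ry6 were higher at 3 d. P2ry1, also a receptor for ADP, had too few UMIs in microglia for a ratio. The log2 ratio of P2ry12 to naive was -0.73 (interval -0.78 to -0.69) at 24 h and -0.32 (-0.34 to -0.29) at 3 d. P2ry13 had -0.42 (-0.52 to -0.33) and -0.48 (-0.54 to -0.41). The naive library was thus the highest of the 3 for both genes, with 24 h lowest for P2ry12. Between the TIA libraries, P2ry12 was higher at 3 d by 0.42 (0.37 to 0.46) on the log2 scale, whereas the P2ry13 difference of -0.05 had an interval that held 0 (-0.15 to 0.05).

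P2ry6, P2rx4 and P2rx7 had intervals that held 0 at 24 h, with log2 ratios of 0.07, 0.16 and 0.04. At 3 d all 3 were slightly higher than naive, P2rx4 by 0.30 (0.15 to 0.45), P2rx7 by 0.18 (0.08 to 0.27) and P2ry6 by 0.15 (0.06 to 0.24). Entpd1 differed by -0.09 (-0.16 to -0.02) at 24 h and -0.02 (-0.07 to 0.03) at 3 d. Adora3 was lower at both times, by -0.27 (-0.53 to -0.01) and -0.24 (-0.41 to -0.07), with the reservation of its overlap with Tmigd3.

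None of the 7 members with enough UMIs was 2-fold different in microglia at 24 h, where 5.03% of 11520 genes were, or at 3 d, where 2.65% of 12486 were. Counted by intervals that leave out 0, 4 of the 7 were lower at 24 h (11.2% of all genes were) and 0 higher (17.6%), and at 3 d 3 were lower (8.35%) and 3 higher (19.1%). Of the 4, Entpd1 changed sign with mean per-cell CPM (0.0091) and in the larger microglial cluster described below (0.17). Intervals narrow as UMIs grow, and each of the 7 members had more than 500 UMIs over both libraries. Only 3998 of the 11520 genes reached 500 at 24 h, so that the interval shares over all genes are not matched for depth. At a size of 1.5-fold P2ry12 alone was lower at 24 h, 1 of 7, as were 6.46% of all genes. Of 3998 genes that reached 500 UMIs in naive and 24 h microglia together, 0.925% had a lower ratio than P2ry12, and 4.45% of all 11520 genes tested did. At 3 d, 0.714% of 5745 such genes and 4.69% of all 12486 had a lower ratio than P2ry13. The same shares were 5.03% and 10.5% for P2ry13 at 24 h, and 1.97% and 8.5% for P2ry12 at 3 d. The median log2 ratio of the 7 members was -0.09 at 24 h and -0.02 at 3 d, beside 0.05 and 0.06 over all genes tested.

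The 12 microglial markers gave a frame for these values. At 24 h their median log2 ratio was -0.19, and 9 of 12 were lower and 2 (C1qa and C1qb) higher by their intervals. Olfml3, at -0.74, was the only marker with a lower ratio than P2ry12, and Siglech followed at -0.65. At 3 d the median was -0.18 and 11 of 12 markers were lower, 3 of them further than P2ry12. The part of a shared change of microglial genes in the P2ry12 and P2ry13 values was not tested.

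The microglia consisted of a pair of clusters, a larger one led by homeostatic genes (864, 205 and 916 cells) and one led by Cxcl10, Ccl12, Tnf and other chemokine and cytokine genes (117, 65 and 292 cells). No purinergic gene entered the clustering. Within the naive library P2ry12 was lower in the chemokine cluster (2213 CPM) than in the homeostatic one (2857 CPM). P2ry12 was lower at 24 h within each cluster, by -0.55 (-0.60 to -0.50) on the log2 scale in the homeostatic and by -1.09 (-1.21 to -0.98) in the chemokine cluster, where the level was 1038 CPM from 65 cells. Entpd1 at 24 h went in opposite directions, with 0.17 (0.09 to 0.24) in the homeostatic and -0.78 (-0.98 to -0.59) in the chemokine cluster. At 3 d P2ry12 differed by -0.26 and -0.29 in the homeostatic and the chemokine cluster, and P2ry13 by -0.46 and -0.33. Adora3 was not lower in the chemokine cluster, at 0.04 (-0.57 to 0.64) at 24 h and 0.15 (-0.30 to 0.63) at 3 d. In the homeostatic cluster it was at -0.25 (-0.55 to 0.04) and -0.26 (-0.45 to -0.08). The difference between the clusters was not tested, since each was seen in 1 library per group.

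**Figure D3:**
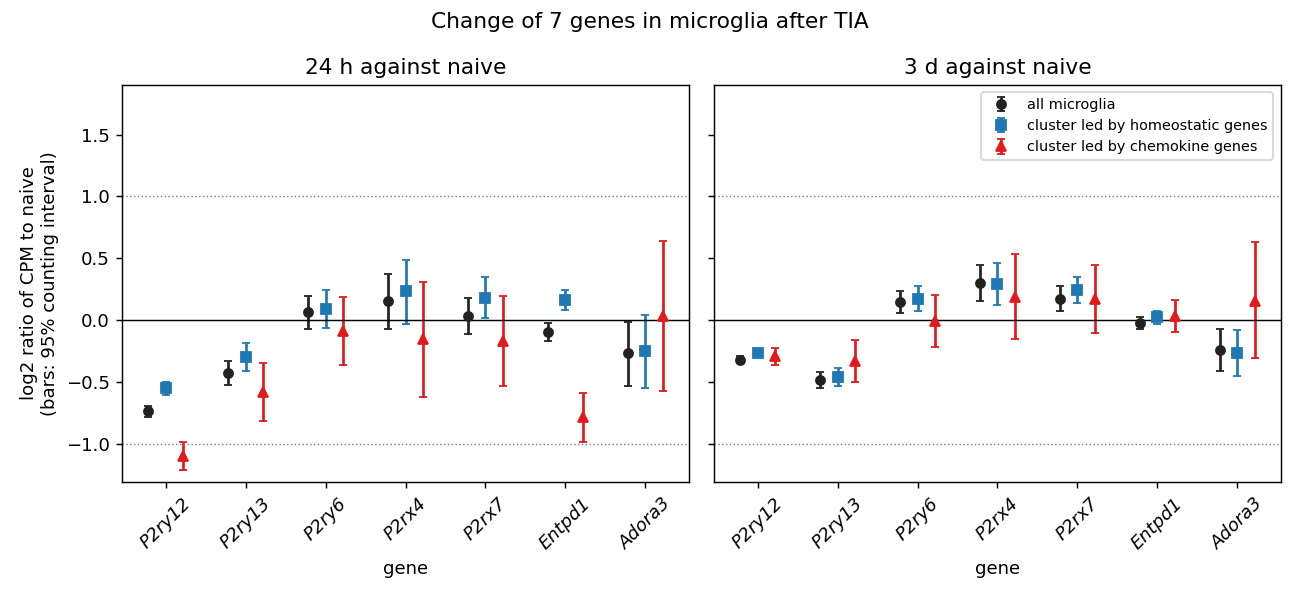
The log2 ratio of CPM to naive is shown at 24 h and 3 d for 7 genes in all microglia (circles), the cluster led by homeostatic genes (squares) and the cluster led by chemokine genes (triangles), with 95% counting intervals as bars and dotted lines at 2-fold. P2ry12 lies below 0 in each at both times, and Entpd1 at 24 h lies at 0.17 in the homeostatic and -0.78 in the chemokine cluster.

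At an equal depth of 2000 UMIs per cell, the lower P2ry12 level was spread over the microglia. The median cell held 5 P2ry12 UMIs in the naive library, 3 at 24 h and 4 at 3 d, over 967, 266 and 1199 cells, and the upper decile lay at 9, 6 and 8 UMIs. The share of thinned microglia without a P2ry12 UMI was 1.55%, 5.26% and 3.25%. Thinning left out 14, 4 and 9 shallower cells, and without it 99.4%, 97.4% and 99.2% of microglia held at least 1 at median depths of 7779, 9331 and 7644 UMIs. In oligodendrocytes, the compared class with the lowest naive P2ry12 level (40.1 CPM), 3.03% of thinned naive cells held a P2ry12 UMI (17.2% unthinned, at a median depth of 13420 UMIs). Of the P2ry12 UMIs of these oligodendrocytes, 5 cells held 70.45%. The thinned share of microglia without P2ry13 went from 37.95% in the naive library to 47.7% at 24 h and 49.3% at 3 d.

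**Figure D4:**
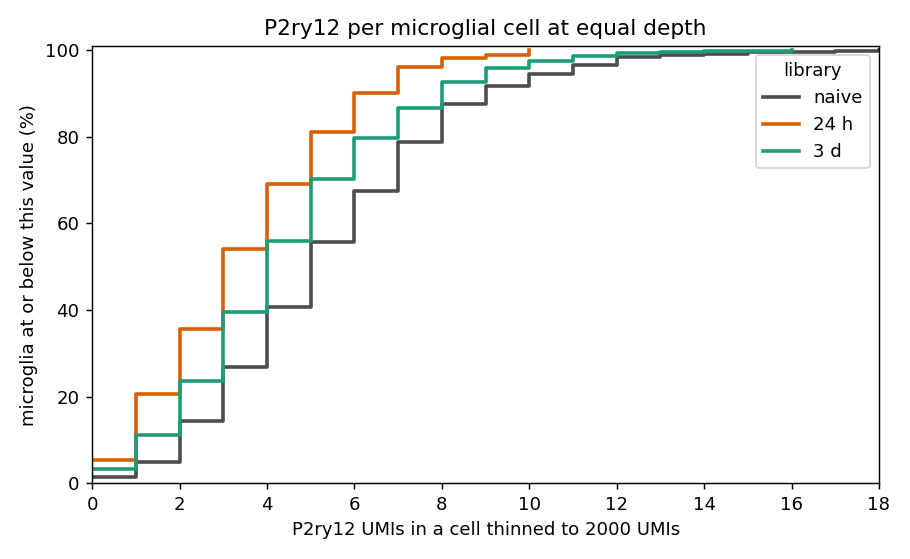
Cumulative share of microglia (vertical axis, percent) at or below a given number of P2ry12 UMIs (horizontal axis) after each cell was thinned to 2000 UMIs, for the 3 libraries. The 24 h curve lies to the left of the 3 d curve and both lie to the left of the naive curve, with medians of 3, 4 and 5 UMIs.

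Outside microglia, 23 values of members had enough UMIs at 24 h, most of them of members highest in microglia, and 13 were lower at least 2-fold. Most of the 13 reached 30 UMIs through the naive library alone, where they were higher, so that their number is only a description. In astrocytes 4 of 7 members were lower at least 2-fold (6.35% of all genes were), namely P2ry12 (-1.84 on the log2 scale, 896 UMIs to 80) and Entpd1 (-1.28, 608 UMIs to 80) and, on few UMIs at 24 h, P2ry13 (138 UMIs to 4, interval -5.36 to -2.08) and P2ry6 (42 UMIs to 1, interval -9.09 to -1.19). In endothelial cells P2ry12 (121 UMIs to 4, interval -6.69 to -3.40) and P2ry13 (29 UMIs to 1, interval -10.08 to -2.14) made up 2 of 4 (3.75% of all genes). In pericytes P2ry12 (-2.28, 57 UMIs to 16) was the only member with enough UMIs (2.98%). In immature neurons 4 of 5 were lower (10.1%), P2ry12 on 395 UMIs to 2 (interval -8.16 to -3.25), P2rx7 at -1.22 (160 UMIs to 12) and P2rx4 on 45 UMIs to 3, whose interval of -3.72 to 0.25 held 0. The fourth, P2ry13, had 86 naive UMIs and 0 at 24 h, at least 5.015-fold lower against a floor of 3 UMIs. All 4 passed the limit of 30 UMIs through the naive library alone, so that 4 of 5 is only a description.

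The summed level of the 12 microglial markers moved in the same direction in these 4 classes, but not in oligodendrocytes. It went from 1003 to 407 CPM in astrocytes, from 1069 to 399 CPM in endothelial cells, from 713 to 337 CPM in pericytes and from 893 to 176 CPM in immature neurons between the naive and the 24 h library. In oligodendrocytes it went from 537 to 591 CPM, while P2ry12 there was lower (-1.34, interval -2.12 to -0.64, 132 UMIs to 19). When cells with more than 1 UMI of another class's markers were dropped, only 5 of the 13 values that were 2-fold lower over the 5 classes at 24 h kept enough UMIs, with 46 naive endothelial cells and 19 naive pericytes remaining. Of these 5, P2ry12 and P2rx7 in immature neurons stayed past 2-fold (-3.43 and -1.13), and P2ry12 and Entpd1 in astrocytes (-0.87 and -0.85) and Nt5e in oligodendrocytes (-0.89) did not. Other settings ended calls too, as P2ry12 in astrocytes was at -0.78 without called doublets, P2rx7 in immature neurons at -0.64 as a mean of per-cell CPM, and P2rx4 in immature neurons at -0.95 without its 5 highest cells.

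Adora1 was higher at 24 h in both classes where it was most abundant. In astrocytes its log2 ratio was 0.79 (0.38 to 1.20) at 24 h and 0.43 (0.14 to 0.72) at 3 d. In oligodendrocytes it was 0.59 (0.26 to 0.91) at 24 h, from 72 cells, and -0.09 (-0.36 to 0.18) at 3 d. The 24 h library was the highest of the 3 in both classes. No value reached 2-fold. The summed level of the 9 oligodendrocyte markers in astrocytes was 92.7, 36.2 and 73.0 CPM in the naive, 24 h and 3 d libraries. When the median share of these 9 markers was subtracted, 16.25, 28.4 and 21.9 CPM of Adora1 were left in astrocytes and the ratios were 0.81 and 0.43. The actual part of oligodendrocyte RNA in the astrocyte Adora1 values was not tested.

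Endothelial Entpd1 differed by -0.59 (-0.90 to -0.27) at 24 h and by 0.37 (0.14 to 0.60) at 3 d. When the median share of the 12 microglial markers was subtracted, 139, 104 and 171 CPM were left and the ratios were -0.42 and 0.30. In oligodendrocytes Nt5e at 24 h (-1.04) passed 2-fold on 8 UMIs with an interval of -2.33 to 0.06, and with P2ry12 (-1.34) it made up 2 of 6 members lower there (6.81% of all genes). P2rx7 was lower at 24 h in astrocytes (-0.53, interval -1.01 to -0.07) and, with an interval that held 0, in oligodendrocytes (-0.51, -1.09 to 0.03).

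At 3 d only P2ry6 in oligodendrocytes (1.78, interval 0.79 to 2.89) and Entpd1 in pericytes (1.98, 1.07 to 3.04) passed 2-fold. P2ry6 was 1 of 8 members (4.62% of genes were higher), on 11 UMIs to 40. Entpd1 was 1 of 4 (5.74%), on 11 UMIs to 87. Both reached the UMI limit through the 3 d library alone, where they were higher, so that these shares are only a description. In astrocytes, endothelial cells and immature neurons none of 9, 7 and 6 members passed 2-fold (2.65%, 4.38% and 2.53% of genes). The microglial markers were also higher at 3 d than in the naive library in oligodendrocytes (928 against 537 CPM) and pericytes (1535 against 713 CPM), and their part in these values was not tested. After dropping cells with more than 1 UMI of another class's markers, neither gene had enough UMIs there for a value. In astrocytes at 3 d 4 of 9 members were lower at 1.5-fold (3.61% of genes) and 0 higher (5.2%). The lower ones included P2ry12 at -0.62 (-0.75 to -0.48) and P2ry13 at -0.80 (-1.16 to -0.44). Over the alternatives these ranged from -0.67 to -0.03 and from -0.83 to -0.26. The remaining lower members rested on few UMIs. They were Adora3 at -0.97 (21 UMIs to 17), whose interval of -1.99 to 0.02 held 0, and Nt5e at -0.93 (24 UMIs to 20, -1.86 to -0.01). The summed microglial markers in astrocytes went from 1003 to 715 CPM, and their part was not tested.

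**Figure D5:**
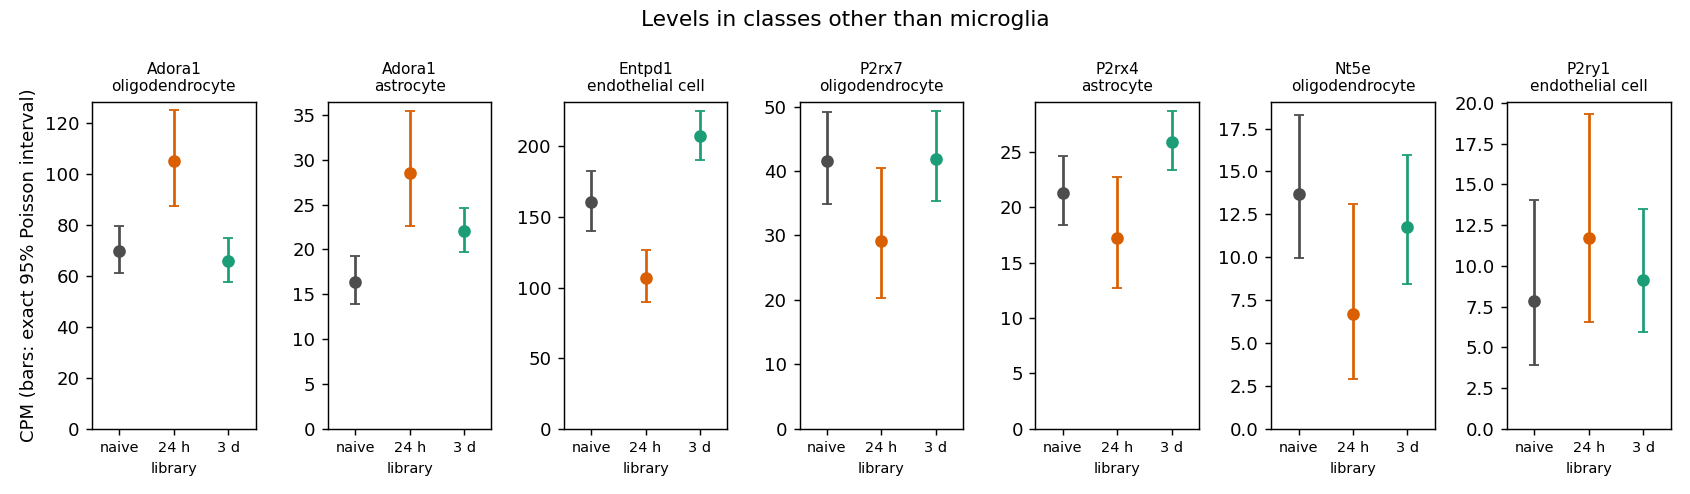
CPM in the naive, 24 h and 3 d libraries for members in classes other than microglia, 1 panel per gene and class, with exact 95% Poisson intervals as bars and each vertical axis starting at 0. Adora1 is highest at 24 h in oligodendrocytes (105 CPM) and astrocytes (28.5 CPM), and endothelial Entpd1 is lowest at 24 h (107 CPM).

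Together with the 10 members, a list of 48 genes covered ATP release, its receptors, its breakdown and the clearance of adenosine. In microglia 21 of these 48 genes had enough UMIs at 24 h. By their intervals 1 of the 21 was higher and 7 lower (17.6% and 11.2% of all genes, not matched for UMI depth). At 3 d 6 of 23 listed genes were higher and 5 lower (19.1% and 8.35%). Enpp2, which makes lysophosphatidic acid and is an oligodendrocyte gene in these data (1866 CPM in naive oligodendrocytes), was the single one that was 2-fold lower in microglia (2.58% of all genes at 24 h and 1.03% at 3 d), on 55 naive UMIs, 4 at 24 h (-2.26) and 32 at 3 d (-1.13). The summed level of the 9 oligodendrocyte markers in microglia was also lower after TIA, at 199, 85.1 and 141 CPM in the naive, 24 h and 3 d libraries, and its part in the Enpp2 values was not tested. Of the clearance genes, microglia held the nucleoside transporter gene Slc29a3 at 293, 237 and 277 CPM (24 h log2 ratio -0.31, interval -0.44 to -0.18) and the purine phosphorylase gene Pnp at 226, 204 and 251 CPM. The nucleoside transporter gene Slc29a1 (53.7, 45.7 and 53.2 CPM) and the channel gene Calhm2 (42.65, 43.5 and 51.55 CPM) also reached 50 CPM in microglia.

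Other classes carried other members of the pathway. Pericytes held P2ry14, the receptor for UDP-glucose, at 713, 898 and 681 CPM, with a log2 ratio of 0.33 (0.18 to 0.49) at 24 h, and Adora2a at 132, 149 and 127 CPM. P2ry14 lies in the same Med12l locus as P2ry12 (chr3:59113855-59153618, minus strand), and in naive astrocytes, the class next to pericytes, it measured 40.5 CPM. Astrocytes held the connexin gene Gja1 (1390, 1292 and 1317 CPM), the adenosine kinase gene Adk (529, 511 and 634 CPM) and the ectonucleotidase gene Entpd2 (94.7, 114 and 125 CPM). Adk also stood at 374, 417 and 399 CPM in pericytes, 138, 172 and 200.1 CPM in endothelial cells and 128, 168 and 119 CPM in oligodendrocytes. Pnp stood at 143, 124 and 132.5 CPM in endothelial cells and 96.5, 84.7 and 94.7 CPM in astrocytes.

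In astrocytes the channel genes Lrrc8a (1.56, interval 1.33 to 1.79) and Gjb6 (1.01, 0.92 to 1.10) were higher at least 2-fold at 24 h, 2 of 23 listed genes (2.95% of all genes), and 0.64 and 0.60 higher at 3 d. Lower at 24 h were 6 of 23 (6.35%), the 4 members and, on few UMIs, Adora2a (-1.53, 36 UMIs to 4) and Slc29a1 (-1.36, 40 UMIs to 5). At 3 d only the vesicular nucleotide transporter gene Slc17a9 was higher (1.43, 7 UMIs to 30), 1 of 27 (1.69%). Lrrc8a, a subunit of the volume-regulated anion channel, was also higher in oligodendrocytes, by 2.02 at 24 h and 1.60 at 3 d on 25, 37 and 80 UMIs. With it the adenosine deaminase gene Ada was higher there (2.32 and 1.37, on 11, 20 and 30 UMIs), which made 2 of 14 at 24 h (3.67%) and, with P2ry6, 3 of 18 at 3 d (4.62%). The ectonucleotidase gene Enpp1 was lower in oligodendrocytes at 24 h (-1.09, 70 UMIs to 12), and 4 of 14 were lower in all (6.81%). The alkaline phosphatase gene Alpl was lower in endothelial cells at 24 h, with 172 UMIs (123 CPM) in the naive library against 20 (15.6 CPM), a log2 ratio of -2.98 (-3.72 to -2.30), and -0.76 at 3 d. With Calhm2 (-1.23, 23 UMIs to 9) and the members, 4 of 15 were lower in endothelial cells at 24 h (3.75%). In pericytes at 3 d Slc29a1 (1.14), Gjb6 (1.25) and Gja1 (1.48) were higher, 4 of 16 with Entpd1 (5.74%), and the summed astrocyte markers there went from 1552 to 2253 CPM. The 5 highest of 327 pericytes held 65.67% of the Gja1, 56.45% of the Gjb6 and 20.97% of the Slc29a1 UMIs at 3 d. In immature neurons at 24 h Adk (-1.47), Slc29a3 (-1.97) and Gjb6 (90 UMIs to 2, interval -6.04 to -1.08) were lower too, 8 of 15 with Gja1 and the members (10.1%). Many of the genes in the counts above reached 30 UMIs only through the library where they were higher. These counts are therefore only a description. Gja1 was lower at 24 h in oligodendrocytes (55 UMIs to 1, interval -9.66 to -1.79), pericytes (36 UMIs to 2, -7.72 to -2.66) and immature neurons (346 UMIs to 2, -7.97 to -3.06), classes in which the summed astrocyte markers also went from 476 to 223, from 1552 to 827 and from 1237 to 307.5 CPM.

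The genes whose log2(CPM + 1) over the 18 class and library profiles was most like that of a member, among 15151 genes outside the pathway, are given as a description, since profiles of 1 library share their cells and depth. For P2ry12 they were Fcer1g, Arhgap45 and Itgam (Pearson's r = 0.983, 0.981 and 0.980), for P2ry13 Siglech, Csf1r and Cd300c2 (0.989, 0.988 and 0.987), and for P2ry6 Csf1r, Ptpn6 and Cx3cr1 (0.992, 0.990 and 0.988). For Adora3 they were Nfam1, Mpeg1 and Hk3 (0.983, 0.981 and 0.981). P2rx4 was closest to Lrmda, Naglu and Rogdi (0.975, 0.970 and 0.970), P2rx7 to Atp6v0b, Fnip1 and Npc2 (0.959, 0.956 and 0.943), and Entpd1 to Sdk1, Slc36a1 and Tnfrsf11a (0.960, 0.958 and 0.951). Adora1 was closest to Dusp15, Tkt and Gm27153 (0.988, 0.978 and 0.975) and Nt5e to Bfsp2, Gm49519 and Srd5a1 (0.930, 0.926 and 0.918). P2ry1 had too few UMIs (73) for this comparison.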

How the data were processed

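Single-cell libraries (10x Genomics 3' v3.1) were deposited as raw UMI counts per gene and cell. Per the file headers the authors counted them with cellranger 7.1.0, while the submitters' notes name Cell Ranger 3.1.0, on mm10; no values were normalized. Total deposited UMIs were 37987228 (naive), 12919691 (24 h) and 48636436 (3 d).

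Only cells with at least 500 genes and at most 7% mitochondrial UMIs entered. Seurat 5.3.0 (R 4.3.3) clustered the rest with the steps the study names (vst features, UMIs and mitochondrial share regressed out, principal components, nearest neighbours) and settings chosen here (2000 features, 20 components, resolution 0.5), with 8 purinergic pathway genes removed from the features. A cluster was named from at least 3 markers found in 10% of its cells and 2-fold above the other cells; this naming rule was set after the clusters were seen. Scrublet (scanpy 1.11.5) doublets were kept and left out in an alternative: 122 of 4018, 6 of 1225 and 140 of 4781 cells.

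UMIs were summed per class and library and divided by their total (per 1000000). Intervals are exact Poisson for levels and exact conditional binomial for ratios (95%), the floor is 3 UMIs, and 30 UMIs and 2-fold were the size rule. With 1 library per group no test was run. The 10 members, the pathway and the marker lists were chosen with earlier results of these data known. Named were all members, pathway genes past 2-fold with an interval that leaves out 0, most but not all of those at 50 CPM, and the 3 genes most like each member with 100 or more UMIs. As alternatives, the cell filter, doublets, resolution, variable features, regression, scaling, weighting and thresholds were varied. Calculations were tested on simulated data.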

Additional observations from a re-analysis of the deposited data

Results flagged for a closer look

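Endothelial Entpd1 was lower than naive at 24 h (log2 ratio -0.59) and higher at 3 d (0.37). P2ry12 showed the same pair of directions in oligodendrocytes (-1.34 and 0.38) and in pericytes (-2.28 and 0.65). Its level in oligodendrocytes lay at or below the median share of the microglial markers (132, 19 and 182 UMIs against 135, 28.75 and 235 in the naive, 24 h and 3 d libraries), and in pericytes above it (57, 16 and 179 against 32.8, 5.94 and 166). The 3 d direction turned without called doublets (-0.16 in oligodendrocytes and -1.06 in pericytes) and, in pericytes, without the 5 cells richest in P2ry12 (-0.14). Within microglia at 24 h, Entpd1 was higher in the cluster led by homeostatic genes (0.17) and lower in the cluster led by chemokine genes (-0.78). The first 3 were singled out because the 24 h and 3 d libraries differed from the same naive library in opposite directions, and the last because the clusters had opposite signs in the contrast of 24 h with naive. With 1 library per group, none of these differences was tested.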

How the results depend on the processing

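No paired analysis was possible because each group was a single library without replicate numbers, and no replicate could be left out. Of 876 alternative values for single genes, 807 stayed within the counting interval of the reported value, 61 moved outside it, and 8 changed the sign of a ratio whose interval leaves out 0. Another 33 changed the sign of a ratio whose interval holds 0 (41 in all). P2ry12 in microglia ranged from -0.81 to -0.65 at 24 h and from -0.37 to -0.28 at 3 d, and P2ry13 from -0.50 to -0.36 and from -0.53 to -0.45, over 11 alternatives. Single microglial clusters, not among the 11, went beyond these ranges, with P2ry12 at -0.55 and -1.09 at 24 h and -0.26 (homeostatic) at 3 d, and P2ry13 at -0.29 and -0.57 at 24 h and -0.33 (chemokine) at 3 d. The median gene of a class shifted by at most 0.07 on the log2 scale.

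The naive microglial P2ry12 level of 2772 CPM became 2668 CPM with the unnamed microglial clusters added, and 2857 and 2213 CPM in the homeostatic and chemokine clusters. Members 2-fold different in microglia at 24 h went from 0 to 1 in the chemokine cluster alone and 1 at 1.5-fold. In the other classes the 13 at 24 h became 2 in cells with at most 1 UMI from other markers, where 5 of the 13 still had enough UMIs (13 of 23 values tested in all), and 7 at 100 or more UMIs, a limit that only removes genes. Of the 13, values under 2-fold were found for P2ry12 in astrocytes (-0.78 without doublets, -0.87 with the marker limit), Entpd1 in astrocytes (-0.85) and Nt5e in oligodendrocytes (-0.89) with the marker limit, P2rx7 in immature neurons (-0.64 with mean per-cell CPM) and P2rx4 there (-0.95 without the 5 highest cells). The others stayed past 2-fold wherever a value was left, such as P2ry13 in astrocytes (-3.53 to -1.90) and P2ry12 in endothelial cells (-4.80 to -3.34) and pericytes (-2.62 to -1.91). The 2 at 3 d became 5 with pathway genes among the variable features, 4 with the literal cell filter, with mean per-cell CPM and without the 5 highest cells, 12 at 1.5-fold, and 0 in cells with at most 1 UMI from other markers and at 100 or more UMIs. Pathway genes 2-fold different in microglia at 24 h went from 1 to 2 without regression, with the literal filter, without doublets, in the homeostatic cluster and without the 5 highest cells, to 3 with mean per-cell CPM and at 1.5-fold, and to 0 at 100 or more UMIs. At 3 d they went from 1 to 0 with the literal filter, at most 1 UMI from other markers, mean per-cell CPM and 100 or more UMIs, to 2 with the unnamed clusters added and to 4 at 1.5-fold.

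The 8 were Adora3 in the chemokine cluster (0.038 at 24 h and 0.15 at 3 d), Entpd1 at 24 h in the homeostatic cluster (0.17) and with mean per-cell CPM (0.0091), P2ry6 at 3 d in the chemokine cluster (-0.0042), and P2ry12 at 3 d without doublets in oligodendrocytes (-0.16) and pericytes (-1.06) and without the 5 highest cells in pericytes (-0.14). The restrictions to single microglial clusters and the subtraction of marker shares were chosen after seeing the data. Apart from lost UMIs, the cause of these changes was not tested. The 24 h library, with 12919691 UMIs, limits members under about 30 UMIs, such as P2ry1 and Nt5e.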

Other observations

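Clusters outside the comparisons also held members. A mixed immune cluster (39, 15 and 45 cells) held P2rx7 at 453, 301 and 263 CPM and P2rx4 at 93.03, 148 and 122 CPM in the naive, 24 h and 3 d libraries. In it, P2ry12 stood at 1921 CPM in the naive library (1693 UMIs), 712 CPM at 24 h (149 UMIs) and 1671 CPM at 3 d (3699 UMIs). Nt5e had 11, 4 and 15 UMIs there.

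Dividing progenitors (196, 37 and 187 cells) held Entpd1 at 44.98, 53.4 and 53.3 CPM and P2rx7 at 11.8, 6.51 and 10.6 CPM. An unnamed cluster of low depth with microglial markers (292, 24 and 147 cells) held P2ry12 at 1305, 644 and 1075 CPM, and one of high depth (62, 20 and 126 cells) at 2724, 1792 and 2224 CPM. P2ry12 was thus lowest at 24 h in each of these microglial-marker clusters, as a description without a test.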
